A study of Saccharomyces cerevisiae with 2 samples.

Results

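Domain IV of the yeast 25S rRNA was taken as nucleotides 1861 to 2350 of the RDN25-2 feature, which is 490 of the 3396 nucleotides of the 25S rRNA and 490 of the 6858 nucleotides of the 35S pre-rRNA covered by the data. The members were chosen by position alone. The measurement was UV crosslinking and analysis of cDNA (CRAC), in which RNA bound to a tagged protein is crosslinked in living cells, trimmed, purified with the protein and sequenced. The Pol5-HTP library came from exponentially growing BY4741 cells in which the genomic copy of POL5 carried a C-terminal His-TEV-ProteinA (HTP) tag, and the WT library from BY4741 cells whose genotype label reads wild type, although the deposited title of that library is WT-HTP and it was taken as untagged. Both were crosslinked at 254 nm. There was 1 library per condition, so no difference below has a replicate check and no p-value was computed. Coverage is given as hits per 1000000 mapped reads at each nucleotide (normalized hits). One read was worth 0.570 normalized hits in Pol5-HTP against 2.16 in WT, and a floor of 3 reads was 1.71 normalized hits in Pol5-HTP against 6.47 in WT.

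Domain IV forms much of the face of the large ribosomal subunit that meets the small subunit. Its helices 68, 69 and 71 carry intersubunit bridges, and helix 69 reaches to the decoding centre of the small subunit. The domain also carries the long expansion segment ES27. In assembling pre-60S particles the domain is compacted late, and the RNA helicase Spb4 acts at ES27. Pol5 is an essential ribosome assembly factor, and the WT library is the control against which its coverage is read.

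Both libraries had a site in the middle of domain IV, and Pol5-HTP had another one near its 3′ end. Sites were defined as stretches whose coverage reached at least 10% of the library's maximum on the 35S pre-rRNA, with gaps of up to 10 nt bridged. The sequences of these places are given because the comparison between the libraries turns on them. All are in the 5′ to 3′ direction of the transcript, with T for U as in the deposited coverage, and are numbered from the 5′ end of the 25S rRNA. RDN25-2 is one of the rDNA copies on chromosome XII in the RefSeq gene table. No genome release is named for the reads, so no chromosome coordinates are given. In the WT site, capitals mark the 14 nucleotides at or above 90% of the WT summit. In the core of the 3′ Pol5-HTP site they mark the unbroken run of 7 nucleotides around its summit at or above 90% of it. Nucleotides 2284 and 2286 to 2288 also reached that level but lie outside this run. In the hairpins, capitals mark the 5 paired nucleotides of each arm.
WT site, nucleotides 2147 to 2210: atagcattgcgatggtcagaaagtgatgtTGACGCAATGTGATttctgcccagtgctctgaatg
Core of the 3′ Pol5-HTP site, nucleotides 2270 to 2312: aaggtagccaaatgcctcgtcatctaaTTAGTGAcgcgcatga
Helix 69 hairpin, nucleotides 2249 to 2267: GGGAGtaactatgaCTCTC
Second hairpin, nucleotides 2287 to 2305: CGTCAtctaattagTGACG

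The helix 69 hairpin was located by the loop letters TAACTAT, which occur 1 time in the 25S rRNA, at nucleotides 2254 to 2260, and was extended by the pairing of its flanks, in which G-T pairs were allowed. The second hairpin was found in a search of domain IV for perfect stems of at least 5 Watson-Crick pairs with loops of 3 to 9 nt, which returned 2 hairpins. This search was made after the coverage was seen. The second hairpin begins 19 nt after helix 69 ends and by its place corresponds to helix 71, which contacts the small subunit beside helix 69.

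Averaged over domain IV, coverage was 715 normalized hits in Pol5-HTP against 1651 in WT, a log2 ratio of Pol5-HTP over WT of -1.20 after 10 normalized hits were added to each mean. The counting interval was -1.23 to -1.16 at the 95% level. The median nucleotide had the opposite order, with 511 normalized hits in Pol5-HTP against 315 in WT. The 64 nucleotides of the WT site contained 28.3% of the Pol5-HTP hits in domain IV and 82.9% of the WT hits there. Over the other 426 nucleotides coverage averaged 589 normalized hits in Pol5-HTP against 324 in WT, a log2 ratio of 0.84. The nucleotides left out here were picked for high WT coverage, which in itself favours a higher ratio over the remainder. Division by the totals of the class counts in place of the deposited totals raised the log2 ratio of the whole domain to 0.73 and that outside the WT site to 2.72.

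The choice of library total shifts every ratio by 1 common factor before the 10 normalized hits are added, and by less at nucleotides with few hits afterwards. Before the addition, the shift with the class totals was 1.94 on the log2 scale, with the median ratio over the 18S rRNA set to 1 it was 0.78, and with the hits on the 35S pre-rRNA it was -0.15. An unplanned scaling set the median ratio over the 25S rRNA outside domain IV to 1, a shift of 0.21. With the deposited scale, these are the 5 scalings referred to below. Only the hits on the 35S pre-rRNA lower the ratios, and only slightly. A positive sign under all 5 scalings is therefore a weak check. As deposited, the 25S rRNA had a median of 439 normalized hits in Pol5-HTP against 438 in WT, which means that the deposited values also set each nucleotide against the 25S median of its own library. Shares within a library do not depend on the scaling. Domain IV makes up 14.4% of the length of the 25S rRNA. It held 8.04% of the 25S hits in Pol5-HTP (95% Wilson interval 7.90% to 8.18%) and 17.4% in WT (17.1% to 17.7%). When the nucleotides of all WT sites were set aside, in domain IV and in the rest, these shares were 9.06% in Pol5-HTP and 9.57% in WT. The nucleotides set aside were picked by WT coverage alone, and Pol5-HTP sites outside them stayed in. The later shares therefore do not show whether domain IV was alike in the libraries outside their sites.

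Nucleotide by nucleotide, 145 of the 490 were at least 2 times higher in Pol5-HTP than in WT, or 29.6%, again with 10 normalized hits added. This share was near that of all nucleotides, which was 25.8% over the 25S rRNA and 36.0% over the 35S pre-rRNA. A further 86 nucleotides, or 17.6%, were at least 2 times lower, against 27.9% of the 25S rRNA and 24.5% of the 35S pre-rRNA. The higher and lower nucleotides lay in different places. Of the 145 higher nucleotides, 98 lay in the 140 nt after the WT site. Of the 86 lower ones, 66 formed 1 unbroken run from nucleotide 2147 to 2212. The WT site was picked for high WT coverage, which in itself favours this split. The remaining 259 nucleotides differed by less than 2 times. These counts depended on the scaling, with 401 higher and 19 lower under the class totals and 292 higher and 67 lower under the 18S median ratio.

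**Figure D1:**
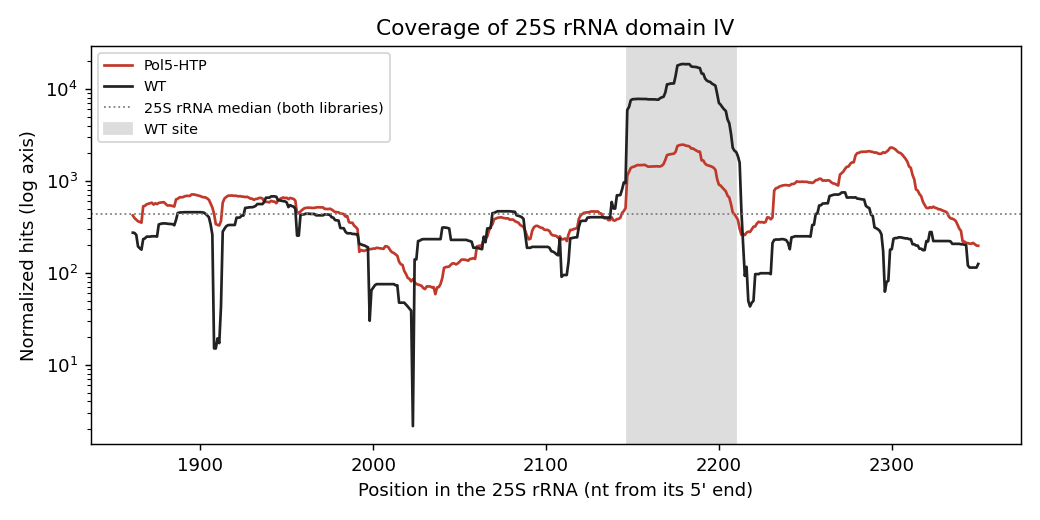
Coverage at each nucleotide of domain IV in Pol5-HTP (red) and WT (black), in normalized hits on a log axis, against the position in the 25S rRNA. The shaded WT site spans nucleotides 2147 to 2210, where WT reached 18668 normalized hits and Pol5-HTP 2479. The dotted line is the median over the 25S rRNA, 439 in Pol5-HTP and 438 in WT.

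The domain was also divided into 7 consecutive stretches of 70 nt. The first, from nucleotide 1861 to 1930, averaged 589 normalized hits in Pol5-HTP against 340 in WT, a log2 ratio of 0.78. The second averaged 481 in Pol5-HTP and 420 in WT, a log2 ratio of 0.19. In both of these stretches Pol5-HTP was the higher under all 5 scalings run, by as little as 0.04 in the second. The third stretch, from nucleotide 2001 to 2070, had the lowest coverage of the domain in each library, with means of 142 normalized hits in Pol5-HTP against 183 in WT. Its log2 ratio of -0.34 changed sign with the scaling, from -0.48 with the hits on the 35S pre-rRNA to 1.47 with the class totals. The fourth stretch, with 347 normalized hits in Pol5-HTP against 319 in WT, had a log2 ratio of 0.12. Its interval of -0.03 to 0.26 included 0, and its sign turned with the hits on the 35S pre-rRNA, at -0.03.

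The fifth stretch, from nucleotide 2141 to 2210, averaged 1456 normalized hits in Pol5-HTP against 9655 in WT, a log2 ratio of -2.72. Among the 7 it was the one stretch in which Pol5-HTP was lower under all 5 scalings, from -2.87 to -0.78. The sixth stretch, which includes helix 69, averaged 849 in Pol5-HTP and 395 in WT, a log2 ratio of 1.09. The seventh, from nucleotide 2281 to 2350, averaged 1141 in Pol5-HTP and 249 in WT, a log2 ratio of 2.15. Both of these were higher in Pol5-HTP under all 5 scalings, the sixth from 0.94 to 2.98 and the seventh from 2.01 to 4.02. The lowest and the highest ratio of the domain therefore lay in stretches 5 and 7, with 1 stretch between them.

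**Figure D2:**
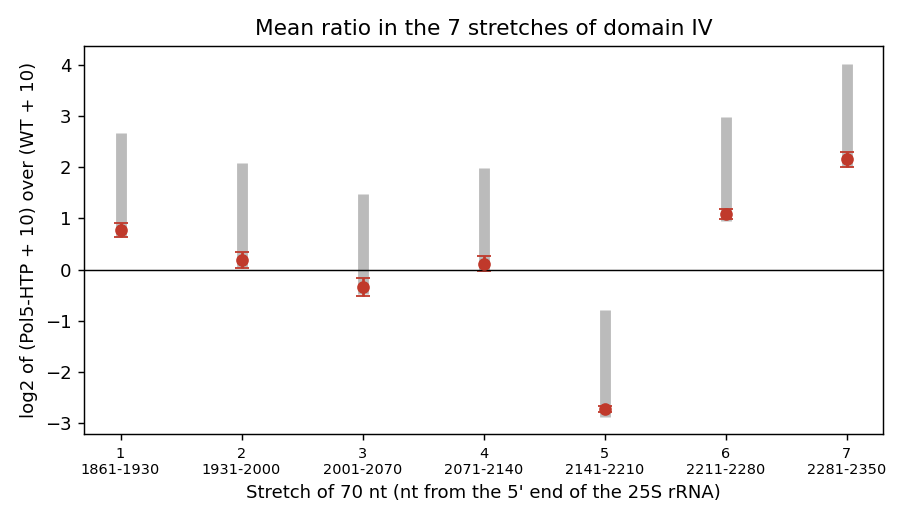
Log2 ratio of Pol5-HTP over WT for the mean of each 70-nt stretch (10 normalized hits added). Points with error bars are the values as deposited with 95% counting intervals, and grey bars span the 5 scalings. Stretch 5 lies below 0 throughout its grey bar, whereas stretches 6 and 7 lie above 0 throughout theirs.

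The WT site was the second highest of the 8 WT sites in the 25S rRNA by summit. At its summit, nucleotide 2180, Pol5-HTP had 2464 normalized hits (4324 reads) and WT had 18668 (8661 reads), which makes WT 7.58 times as high, with an exact 95% interval of 7.30 to 7.86. This summit was picked for its WT coverage, and the interval does not allow for that choice. Pol5-HTP had a site of its own within the WT site, from nucleotide 2175 to 2189. Its summit of 2479 normalized hits at nucleotide 2179 was the highest value of Pol5-HTP in domain IV. In WT the WT summit was 42.7 times the median of the 25S rRNA, and only 11 nucleotides of the 25S rRNA were higher. In Pol5-HTP the same nucleotide was 5.62 times the median, and 379 nucleotides were higher. Over the whole WT site, Pol5-HTP averaged 1552 normalized hits and WT 10485, a log2 ratio of -2.75 that lay between -2.90 and -0.81 over the 5 scalings. The 3 lowest windows of 10 nt in domain IV all lay in this site, at nucleotides 2191 to 2200, 2181 to 2190 and 2171 to 2180, with log2 ratios of -3.04, -2.99 and -2.77. The first of these was also the lowest of the 339 windows of the 25S rRNA.

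The steepest rise of the domain and its 2 steepest falls lay at the same nucleotides in both libraries. The rise fell between nucleotides 2146 and 2147 in each, from 889 to 2009 reads in Pol5-HTP and from 440 to 2742 reads in WT. The 15 nt before and after this rise, with those after it in capitals, are as follows.
Nucleotides 2132 to 2161: ctgtctaattaaaacATAGCATTGCGATGG
The steepest fall was likewise shared, between nucleotides 2189 and 2190, from 3650 to 2935 reads in Pol5-HTP and from 7829 to 6830 in WT. The next steepest fall was between nucleotides 2198 and 2199 in each. Across the 64 nucleotides the profiles had a Spearman correlation of 0.913 and a Pearson correlation of 0.922, given as a description, since neighbouring nucleotides share reads. Over the 426 nucleotides outside the site these values were 0.538 and 0.272.

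**Figure D3:**
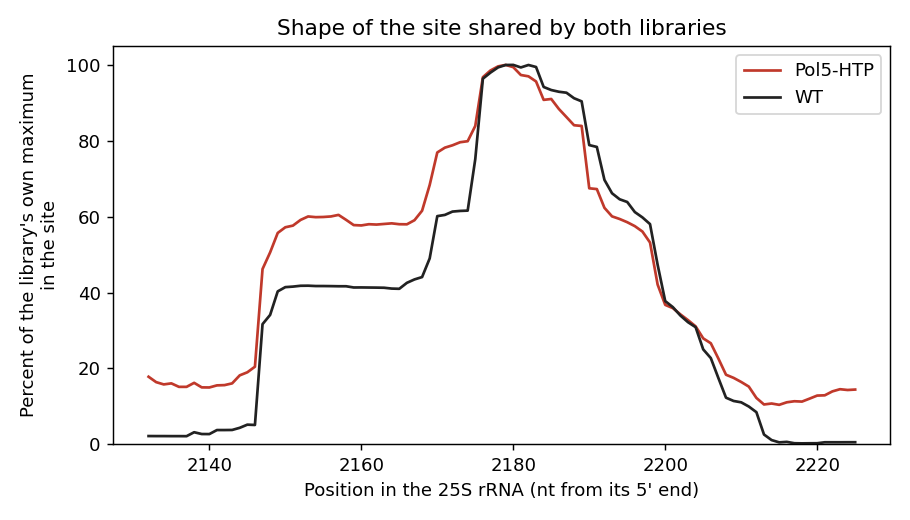
Coverage of the WT site and 15 nt on either side in Pol5-HTP (red) and WT (black), each as a percent of its own maximum in the site, against the position in the 25S rRNA. The steepest rise and the 2 steepest falls coincide, but the first 20 nt of the site averaged 57.5% of the maximum in Pol5-HTP and 40.6% in WT.

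The 5′ shoulder was relatively taller in Pol5-HTP. Over the first 20 nt of the site coverage averaged 1425 normalized hits in Pol5-HTP against 7580 in WT, a log2 ratio of -2.40. Over the last 20 nt it was 1012 in Pol5-HTP and 7838 in WT, a log2 ratio of -2.94. Just before the site, at nucleotide 2146, coverage was 20.4% of the site maximum in Pol5-HTP and 5.08% in WT.

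The order of the libraries turned sharply at the 3′ edge of the site. Pol5-HTP had 260 normalized hits and WT 479 at nucleotide 2213, whereas Pol5-HTP had 266 and WT 205 at nucleotide 2214. From there to the end of the domain Pol5-HTP stayed above WT at every nucleotide on the deposited scale. Over the 140 nt from nucleotide 2211 to 2350 coverage averaged 995 normalized hits in Pol5-HTP against 322 in WT, a log2 ratio of 1.60 (interval 1.51 to 1.69). This part held 39.8% of the Pol5-HTP hits in domain IV and 5.57% of the WT hits there. The log2 ratio was positive under all 5 scalings, from 1.45 to 3.48. This part starts where the WT site ends and holds the 3′ Pol5-HTP site, which was called on Pol5-HTP coverage. Both favour a higher ratio, and the interval does not allow for them. The sequence of the 140 nt is shown with helix 69 and the second hairpin in capitals.
Nucleotides 2211 to 2350: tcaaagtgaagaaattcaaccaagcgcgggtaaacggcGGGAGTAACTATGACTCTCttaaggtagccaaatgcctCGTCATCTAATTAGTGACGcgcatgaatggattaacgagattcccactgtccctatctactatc

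**Figure D4:**
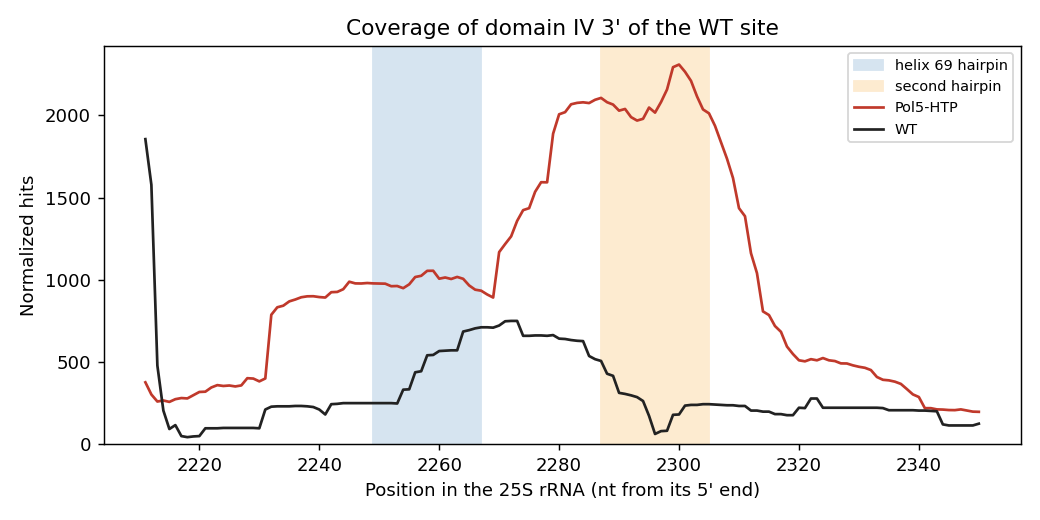
Coverage 3′ of the WT site in Pol5-HTP (red) and WT (black), in normalized hits on a linear axis, against the position in the 25S rRNA. The helix 69 hairpin (blue) and the second hairpin (orange) are shaded. Pol5-HTP stands between 934 and 1055 over helix 69 and reaches 2309 in the second hairpin, where WT is at its lowest between the hairpins and the end of the domain.

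In Pol5-HTP the coverage climbed in steps. It was 400 normalized hits at nucleotide 2231 and 787 at nucleotide 2232, a gain of 680 reads that was the second steepest rise of Pol5-HTP in the domain. WT had 98 reads at nucleotide 2231 and 106 at nucleotide 2232. The 38 nt from the WT site to helix 69 averaged 588 normalized hits in Pol5-HTP against 255 in WT.

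Over the helix 69 hairpin, coverage averaged 990 normalized hits in Pol5-HTP against 471 in WT, a log2 ratio of 1.06 (interval 0.89 to 1.22) that lay between 0.91 and 2.95 over the scalings. Pol5-HTP was nearly level there, between 934 and 1055, whereas WT climbed along the hairpin and ranged from 248 to 711. The ratio therefore declined from arm to arm. In the 5′ arm Pol5-HTP averaged 971 and WT 249.6, a log2 ratio of 1.92. In the loop, which meets the small subunit in the ribosome, Pol5-HTP averaged 1011 and WT 482, a log2 ratio of 1.05. In the 3′ arm Pol5-HTP averaged 973 and WT 673, a log2 ratio of 0.52. Of the 19 nucleotides of the hairpin, 9 were at least 2 times higher in Pol5-HTP, all of them in the 5′ arm and the loop. The decline went on to nucleotide 2269, just past the hairpin, where the log2 ratio was 0.33. The last 10 nt of the domain averaged 209 normalized hits in Pol5-HTP against 142 in WT.

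The 19 nt between the hairpins averaged 1616 normalized hits in Pol5-HTP against 662 in WT. Pol5-HTP stood at 1169 at nucleotide 2270 and at 2007 at nucleotide 2280, whereas WT declined after a local high of 750 at nucleotide 2272. The second hairpin averaged 2095 normalized hits in Pol5-HTP against 251 in WT, a log2 ratio of 3.01 (interval 2.85 to 3.17) that lay between 2.86 and 4.88 over the scalings. All 19 of its nucleotides were at least 2 times higher in Pol5-HTP. Its 5′ arm had a log2 ratio of 2.36, its loop 3.48 and its 3′ arm 3.10. The hairpin was named after the coverage was seen and lies mostly within the 3′ Pol5-HTP site. Both favour high ratios, and the interval of the hairpin does not allow for them. The loop held the largest ratio of the domain once 10 normalized hits were added, a log2 ratio of 4.81 at nucleotide 2296. There Pol5-HTP had 2017 normalized hits (3540 reads) and WT 62.5 (29 reads), a ratio of 32.3 without the addition, with an exact 95% interval of 22.4 to 48.3. That interval does not allow for the choice of the nucleotide by its ratio. Over the loop Pol5-HTP varied between 1969 and 2309 normalized hits, whereas WT varied between 62.5 and 297.

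The 3′ Pol5-HTP site itself ran from nucleotide 2282 to 2303, and its core, at or above 50% of the summit, was 43 nt long and so extended from just after helix 69 to 7 nt past the second hairpin. The summit, nucleotide 2300, lay 33 nt after the end of helix 69 and 120 nt after the WT summit, at the last nucleotide of the hairpin loop. There Pol5-HTP had 4053 reads and WT 84, a ratio of 12.8 (exact 95% interval 10.3 to 16.03). The summit was picked for its Pol5-HTP coverage, which favours a high ratio, and the interval does not allow for that choice. In Pol5-HTP this nucleotide was at 5.26 times the median of the 25S rRNA, and in WT at 0.414 times. Of all hits in domain IV, the site contained 13.2% in Pol5-HTP and 0.894% in WT. It overlapped no WT site, unlike the other Pol5-HTP site of the domain. Its log2 ratio of 2.64 lay between 2.49 and 4.52 over the 5 scalings. The site was nonetheless low among those of Pol5-HTP. Its summit was 11.2% of the Pol5-HTP maximum and the lowest of the 6 Pol5-HTP sites in the 25S rRNA, just under the 12.05% of the site at nucleotide 2179. By ratio, the window from nucleotide 2291 to 2300 was the highest of domain IV, at 2088 normalized hits in Pol5-HTP against 191 in WT, and ranked 18 among the 339 windows of the 25S rRNA. The next highest were the windows from 2301 to 2310 and from 2311 to 2320, in which Pol5-HTP was 7.76 and 4.01 times as high as WT.

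**Figure D5:**
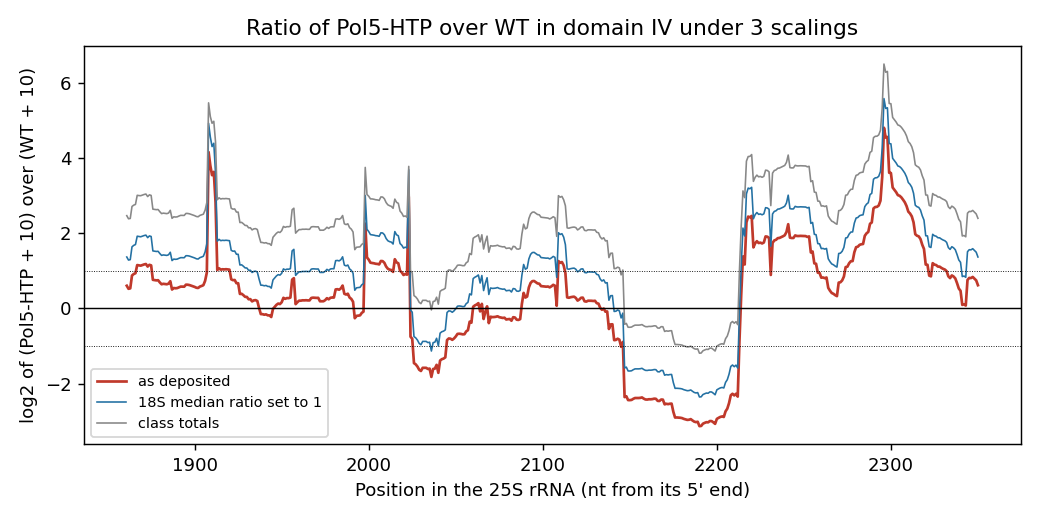
Log2 ratio of Pol5-HTP over WT at each nucleotide of domain IV (10 normalized hits added) as deposited (red), with the 18S median ratio set to 1 (blue) and with the class totals (grey). Dotted lines mark 2 times higher and lower. Between nucleotides 2147 and 2210 all 3 curves lie below 0, and after nucleotide 2214 all 3 lie above 0, with the highest value at nucleotide 2296.

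The 286 nt before the WT site showed smaller differences, with a mean of 391 normalized hits in Pol5-HTP against 326 in WT and a log2 ratio of 0.26. There 47 of the 286 nucleotides were at least 2 times higher in Pol5-HTP, in 6 runs, and 20 were at least 2 times lower. Both are smaller shares than over the 25S rRNA, where 25.8% were higher and 27.9% lower. In several of the higher runs WT coverage was low. At nucleotide 1908 Pol5-HTP had 438 normalized hits (769 reads) and WT 15.1 (7 reads). At nucleotide 2023 Pol5-HTP had 85.5 normalized hits (150 reads) and WT 2.16 (1 read), below the floor of 3 reads, so that the ratio there, the largest of the domain without the addition, rests on 1 WT read. From nucleotide 1998 to 2013 Pol5-HTP averaged 181 normalized hits and WT 71.3. The part of low WT counts in these ratios was not tested.

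Apart from nucleotide 2145, the lower nucleotides before the WT site formed a run of 19 nt within the third stretch, with means of 80.7 normalized hits in Pol5-HTP against 252 in WT and a log2 ratio of -1.53.
Nucleotides 2026 to 2044: actacttgcgtgccttgtt
The lowest Pol5-HTP value of the domain, 58.7 normalized hits (103 reads), was at nucleotide 2036 in this run, where WT had 233 (108 reads). The third stretch was also the richest in T, at 34.3%, with 57.1% G and C. The other hairpin found in the search, from nucleotide 2061 to 2075, averaged 309 normalized hits in Pol5-HTP against 344 in WT, and the sign of its log2 ratio of -0.15 depended on the scaling.
Hairpin, nucleotides 2061 to 2075: GGTCTcttgtAGACC

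The grain of the profiles differed between the libraries. In Pol5-HTP, 9 of the 489 pairs of neighbouring nucleotides had the same number of reads, or 1.84%, and in WT 167 did, or 34.2%. The longest level run was 3 nt in Pol5-HTP and 11 nt in WT. A read was worth 0.570 normalized hits in Pol5-HTP against 2.16 in WT, and the WT site contained 82.9% of the WT hits in the domain. WT therefore had fewer reads than Pol5-HTP at most nucleotides outside that site. The part of read depth in the grain was not tested. At least 12375 reads are needed to give the Pol5-HTP profile of the domain and at least 10334 to give that of WT, and the intervals of region means rest on these lowest numbers. All intervals and the floor describe counting error alone, since there was 1 library per condition, and reads copied by PCR need not be separate molecules even where identical sequences were merged.

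Coverage was also summarised by base over the 426 nucleotides outside the WT site. At A the median was 493 normalized hits in Pol5-HTP against 250.03 in WT, and at T it was 391 in Pol5-HTP and 272 in WT. C and G lay between A and T in their median log2 ratio, which was 0.70 at A and 0.54 at T. Pol5-HTP was thus the higher in the median at all 4 bases on the deposited scale.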

How the data were processed

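One library per condition, Pol5-HTP and WT, was analysed. The tools named by the authors are Bowtie 2 for mapping (version 2.3.4.2 in the submitters' processing notes, another version in the methods), pyCRAC for the counts per RNA class and Flexbar for trimming. Reads of identical sequence had been merged, so a hit is not a raw read. The placing of reads that match several rDNA copies and the genome release are not given in the sources used here. As deposited, the coverage signal at each nucleotide is in hits per 1000000 mapped reads. The deposited counts per RNA class served only as alternative library totals.

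Values were whole multiples of a fixed step at 100% of positions (within 0.01 reads), which gave totals of 1755048 reads for Pol5-HTP and 463950 for WT. The class counts summed to 1073688 reads for Pol5-HTP and 1092199 for WT. The coverage listed 6862 positions, and 4 that repeated a boundary nucleotide were counted once.

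Calculations used Python 3.11.15, numpy 2.4.6, scipy 1.17.1 and matplotlib 3.10.9, and the code was tested on simulated data. Regions were compared as log2 ratios of means with 10 normalized hits added. Places were named by rule: all sites touching the domain, the 3 highest and 3 lowest windows of 10 nt, the 7 stretches and helix 69. The second hairpin, single nucleotides with extreme values and the runs before the WT site were named after their values were seen. Alternatives were the scaling, the value added, the mean or median, the edges and the site rules. The region, sites and alternatives were chosen with earlier results of these data known.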

Additional observations from a re-analysis of the deposited data

How the results depend on the processing

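The sign of the mean ratio of domain IV depended on the WT site and on the scaling, whereas the WT site and the 3′ Pol5-HTP site kept their direction under all alternatives run. Each of these sites was called on the library in which it was higher, which favours its direction. The log2 ratio of the domain, -1.20, was -1.34 after scaling by 35S pre-rRNA hits, -0.43 scaled to the 18S median ratio and 0.73 with the class totals. It was -1.10 with 100 normalized hits added, -1.28 without 30 nt at each edge and 0.68 with the median over the region. Without the WT site, an alternative chosen after seeing the data, it was 0.84, or 2.72 with the class totals. That alternative leaves out nucleotides picked for high WT coverage, which in itself favours a higher ratio. The difference from the log2 ratio of the rest of the 25S rRNA, -1.26, was -1.16 with 100 added, -1.35 without the edges, 0.83 with medians and -0.093 without all WT sites, the last chosen after seeing the data. The share of 25S hits was 7.42% in Pol5-HTP and 17.1% in WT without the edges, and 9.06% in Pol5-HTP and 9.57% in WT without all WT sites. Leaving out all WT sites takes out nucleotides high in WT, while Pol5-HTP sites outside them stay in. The 145 higher nucleotides became 401 with the class totals, 292 with the 18S median ratio, 92 with 100 added and 40 at 4 times, and the 86 lower ones became 19 with the class totals. With a site threshold of 30%, 0 Pol5-HTP sites were left in the domain, since both summits were below it, and joining over 0 nt gave 3. The cause of the other changes was not tested. Leaving out a replicate could not be run. No paired analysis was possible because there was 1 library per condition. WT nucleotides with few reads limit single ratios, as at nucleotide 2296 with 29 reads.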
